A study of Mus musculus with 10 samples.

Results

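Cytochrome P450 enzymes were followed in medullary thymic epithelial cells (mTECs) with and without the zinc finger transcription factor Fezf2. The genes were all those whose platform symbol has the P450 form, Cyp followed by a family number, a subfamily letter and a gene number. There were 70 such genes, with 93 of the 45101 probe sets of the array, out of 18194 genes with a single symbol. Expression had been measured on 10 Affymetrix arrays, 5 of Fezf2 KO and 5 of wild-type (WT) cells. Both groups were mice of a C57BL/6 background aged 3 weeks, and per the labels their cells were sorted as CD45- EpCAM+ CD80hi, that is, epithelial cells free of leukocytes with much of a costimulatory surface protein that mature mTECs carry. The labels describe neither the knockout allele nor the cells in which it acts, and whether each array is a separate mouse is not stated, so a p-value here measures array-to-array spread, part of which may be technical. Arrays are called KO 6 to KO 10 and WT 1 to WT 5 after their titles, and 5 values in a sentence stand in that order.

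P450 enzymes are haem proteins that insert an oxygen atom into their substrate, with electrons supplied in the endoplasmic reticulum by the reductase Por and in mitochondria by ferredoxin. Some have a single physiological substrate, such as retinoic acid, vitamin D, cholesterol or a steroid hormone precursor, while most members of the first families act on drugs, pollutants and fatty acids, chiefly in liver, intestine, kidney and airway. Mature mTECs transcribe many genes of such organs and show the products to developing T cells. Several P450 enzymes of liver and adrenal gland are known targets of autoantibodies in people who lack AIRE, the other main regulator of these antigens.

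Fezf2 signals were 13.8, 18.3, 13.2, 12.1 and 17.7 on the KO arrays, against 5239.8, 5054, 5895, 5432 and 5757 on the WT arrays, which bears out the labels. Epcam was 7695 ± 261 in KO and 7344 ± 232 in WT cells, and Cd80 717 ± 102 and 812 ± 139 (SD, n = 5 each, as for all values given so below). Of 14 markers of mature mTECs, all measured, 4 were lower and 3 higher (summed signal 61544 to 64151 on KO and 57652 to 66571 on WT arrays). Aire was among the lower ones, with 6504 ± 1199 in KO and 8791 ± 1156 in WT cells (log2 change -0.45, adjusted p = 0.0282, limma), and its part in the P450 values was not tested. No probe set was at 0, and the lowest signal was 5.49. Array medians lay between 36.5 and 38.0, and log2 signals of any 2 arrays correlated at 0.975 to 0.997. Poly-A spike-in signals were highest on KO 6 and, among WT arrays, on WT 1. Xist, which marks cells with an inactive X chromosome, was at most 29.97 on WT 2, KO 6 and KO 8 and at least 5304 on the others. Markers of cortical thymic epithelium, which the EpCAM gate also admits, were higher in 4 and lower in 1 of 10 cases (summed signal 20696 to 25153 on KO and 12233 to 16378 on WT arrays), and their part in the P450 values was not tested. Of the markers of other cells, endothelial genes were higher in 7 of 10 cases (summed signal 1408 to 1706 on KO and 879.9 to 1340.2 on WT arrays). Myeloid genes were lower in 5 and higher in 1 of 9 (summed signal 4285 to 5325 on KO and 6466 to 6917 on WT arrays). None of 10 T cell genes passed the test. Over all genes tested, 16.2% were lower and 13% higher in KO cells. In such bulk samples, fewer cells that make a transcript and less transcript per cell cannot be told apart.

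Of the 70 P450 genes, 44 passed the filter, a signal above the 40th percentile of its own array (21.5 to 22.1) on at least 5 arrays. The other 26 lay between 6.56 and 29.6 and are treated as not measured. They were Cyp11b2, Cyp2b9, Cyp2b13, Cyp2c23, Cyp2c38, Cyp2c39, Cyp2c50, Cyp2c54, Cyp2c55, Cyp2c65, Cyp2d13, Cyp2d22, Cyp2d26, Cyp2d34, Cyp2d40, Cyp2j5, Cyp2j11, Cyp2r1, Cyp2u1, Cyp3a16, Cyp3a44, Cyp4a14, Cyp4a31, Cyp4x1, Cyp7a1 and Cyp8b1. Among them are Cyp7a1 and Cyp8b1, liver enzymes of bile acid synthesis, and Cyp2r1, which activates vitamin D. Of the 44 measured genes, 36 were above the cut-off on all 10 arrays.

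Lower signals prevailed among the P450 genes of KO cells. Of the 44 measured genes, 17 were lower (38.6%) and 4 higher (9.09%) at an adjusted p under 0.05 (limma, Benjamini-Hochberg over all 14087 genes), where 16.2% of all genes tested were lower, 13% higher and 29.2% changed in either direction. The median log2 change, on the scale of log2(signal + 16), was -0.14 for the P450 genes and -0.03 for all genes tested. Every KO value lay below every WT value for 13 P450 genes, and every KO value above every WT value for 3, against 12% and 10.1% of all genes tested. The largest falls were of Cyp3a11 (-1.17), Cyp4v3 (-1.01), Cyp3a25 (-0.88), Cyp4f16 (-0.82), Cyp24a1 (-0.82) and Cyp26a1 (-0.80), and the largest rise was of Cyp2f2 (2.00). The 23 genes that did not pass had changes of -0.33 to 0.61. Levels are not compared between genes, since each probe set has its own affinity.

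**Figure D1:**
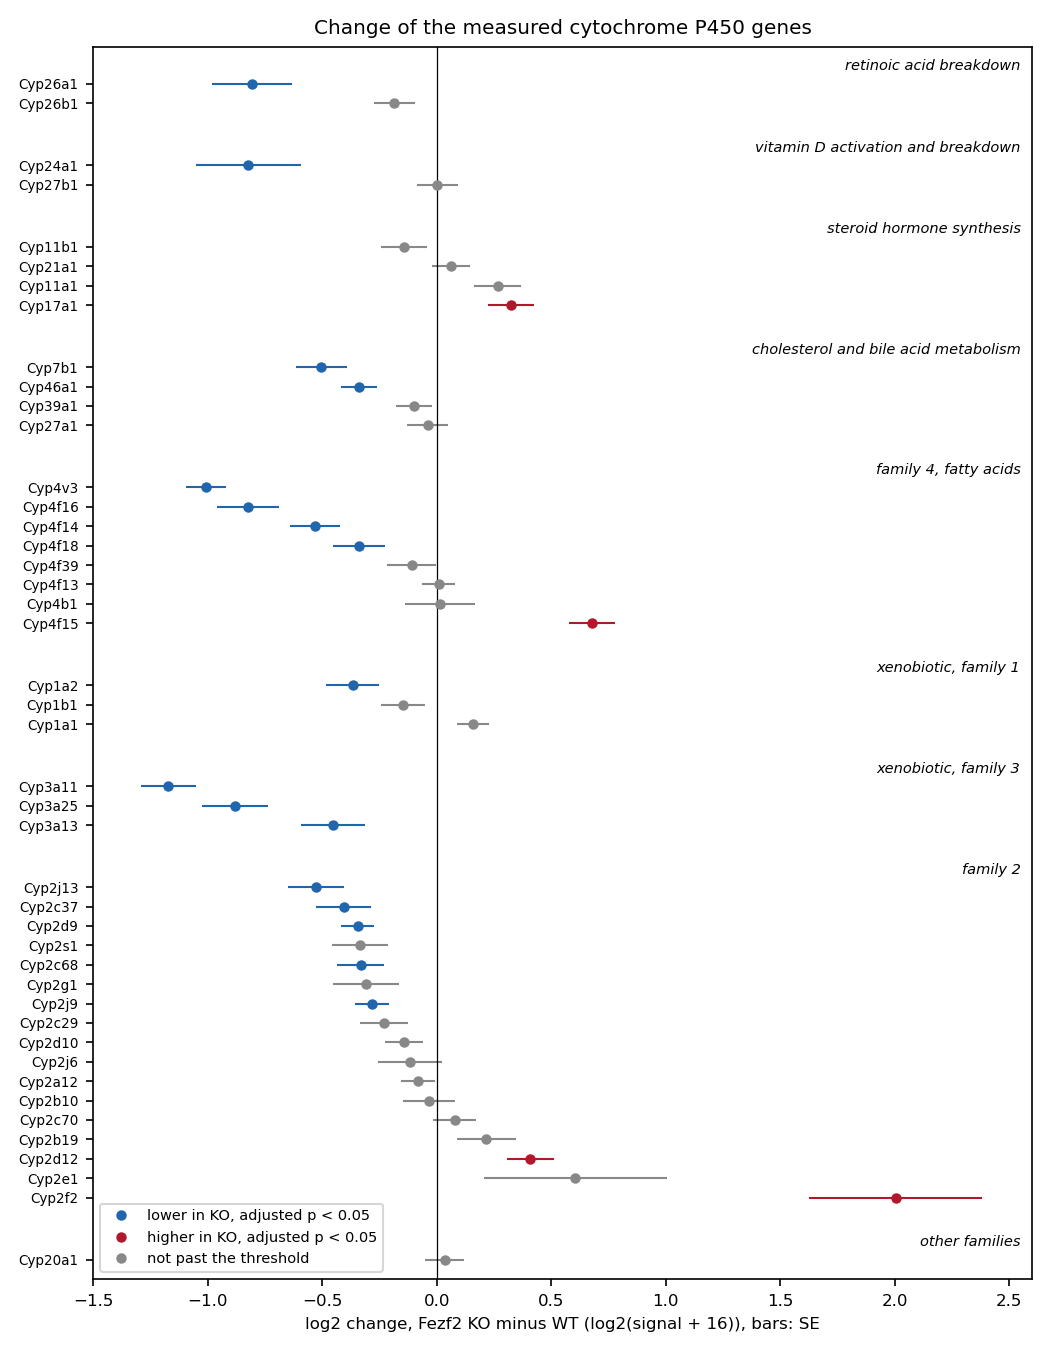
Log2 change of the 44 measured P450 genes, Fezf2 KO minus WT, with the SE as a bar, grouped by role. Blue points are the 17 genes lower in KO cells, red points the 4 higher ones and grey points those not past an adjusted p of 0.05, and Cyp2f2 at 2.00 stands far to the right of the rest.

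Cyp26a1 and Cyp24a1, which break down retinoic acid and vitamin D, were lower in KO cells. Cyp26a1, the main hydroxylase that clears retinoic acid, was 525, 867, 842, 766 and 699 on the KO arrays, against 876, 1126, 1592, 1614 and 1383 on the WT arrays. The highest KO value lay just below the lowest WT value, and KO 6 and WT 1 were the lowest of their groups (log2 change -0.80, SE 0.17, adjusted p = 0.00429). With WT 1 and KO 6 as a block the adjusted p was 7.44e-05. No label makes these arrays a batch, and the block takes up the spread they cause, so this lower p adds no support. Such a block takes an array from each group, so it cannot alter the size of the change. Its relative Cyp26b1 was 34.6 to 51.6 in KO and 45.6 to 60.6 in WT cells and did not pass (log2 change -0.18, SE 0.09, adjusted p = 0.147). Cyp24a1, the enzyme that inactivates vitamin D and a textbook target of the vitamin D receptor, was 27.6, 29.0, 26.7, 28.1 and 23.1 on the KO arrays, close to the cut-off, against 41.2, 30.4, 88.6, 115 and 52.9 on the WT arrays. The WT arrays spread widely, from a value next to the KO ones on WT 2 to the highest on WT 4, and the fall had log2 change -0.82, SE 0.23, adjusted p = 0.0177. Cyp27b1, which makes the active form of vitamin D, was 18.96 to 31.2 in KO and 21.8 to 31.3 in WT cells (0.00, adjusted p = 0.988).

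Genes of the same pathways were taken from lists written with earlier results of these data known. Of the retinoic acid list, 3 of 15 measured genes were lower and 2 higher, with a median log2 change of -0.07, shares close to the 16.2% lower and 13% higher of all genes tested. Crabp2, a retinoic acid carrier that delivers it to the nucleus, was 1138 ± 103 in KO and 407 ± 42.5 in WT cells (1.45, adjusted p = 3.58e-07). The carrier Crabp1 fell (-0.65), as did Aldh1a2, which makes retinoic acid (-0.98), and Lrat, which stores retinol as esters (-0.94). Vdr, the vitamin D receptor, was 431 ± 25.6 in KO and 717 ± 61.9 in WT cells (-0.71, adjusted p = 1.89e-05). In the list of vitamin D and steroid genes, 7 of 20 measured genes were lower and 3 higher, with a median log2 change of -0.20.

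The promoter of Cyp26a1 is shown because retinoic acid is known to induce this gene through a pair of receptor binding elements near its start. The 120 bases before the RefSeq start are given 5′ to 3′ on the gene's strand, and the capitals mark the match to the repeat AGTTCA, 5 bases, AGTTCA, searched on both strands.
Cyp26a1 (GRCm38.p6, chr19:37697688-37697807, plus strand): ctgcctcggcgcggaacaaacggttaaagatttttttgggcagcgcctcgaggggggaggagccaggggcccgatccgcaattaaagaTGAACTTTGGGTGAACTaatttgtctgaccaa
The match ends 15 bases before the start. These exact letters stood in 3 of 32851 promoter windows of this length (0.00913%), which cover all listed starts. By the first listed start, 1 of the 51 P450 genes with a window held them. The repeat searched is spelled as in Cyp26a1 itself, so its match there carries no weight. Receptor elements of other spelling were not searched, and the counts do not cover them. The match describes the sequence and says nothing of receptor binding in these cells.

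Of 4 measured enzymes of steroid hormone synthesis, 1 was higher and none lower in KO cells, against 13% and 16.2% of all genes tested. Cyp17a1, which makes androgen precursors, was 218, 229, 208, 206 and 168 on the KO arrays, against 134, 165, 163, 192 and 152 on the WT arrays. The groups overlapped, since KO 10 lay below WT 4, and the rise was small (log2 change 0.33, SE 0.10, adjusted p = 0.0275). The call was lost without WT 1 (0.0547), WT 5 (0.0614), KO 7 (0.0711), KO 8 (0.058) and KO 9 (0.0526), with the adjusted p in parentheses, and without WT 1 and KO 6 together (0.25, adjusted p = 0.0805). Cyp11a1, which cuts the cholesterol side chain in the opening step of steroid synthesis, was 151 to 182 in KO and 111 to 166 in WT cells (0.27, adjusted p = 0.0706). Cyp21a1, a hydroxylase of the adrenal cortex, and Cyp11b1, which makes corticosterone, had changes of 0.06 and -0.14, neither past the threshold. Around them Hsd17b6, a steroid dehydrogenase, fell to 62.1 ± 8.53 in KO cells, against 239 ± 59.1 in WT cells (-1.68). Hsd11b2, which inactivates corticosterone, rose (0.75, adjusted p = 0.000409).

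Of 4 measured enzymes of cholesterol and bile acid metabolism, 2 were lower, where 16.2% of all genes tested were. Cyp7b1, the oxysterol hydroxylase of the alternative bile acid route, was 145, 169.8, 162, 173 and 194 on the KO arrays, against 324, 257, 221, 217 and 219.7 on the WT arrays. The groups did not overlap (log2 change -0.50, SE 0.11, adjusted p = 0.00476), and a weaker probe set of the gene gave -0.51. Cyp46a1, the cholesterol hydroxylase of neurons, was 30.2, 24.4, 21.2, 21.7 and 25.2 on the KO arrays, against 34.8, 39.2, 27.9, 38.0 and 36.4 on the WT arrays. These signals are near the cut-off, and KO 6 lay above WT 3 (log2 change -0.34, SE 0.08, adjusted p = 0.0067). Cyp27a1, the mitochondrial sterol hydroxylase, was 172 ± 16.9 in KO and 178 ± 19.7 in WT cells (-0.04, adjusted p = 0.778), and Cyp39a1 had a change of -0.10.

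Family 4, whose members hydroxylate the far end of fatty acids and eicosanoids, was lower in 4, higher in 1 and not past the threshold in 3 of 8 measured genes. Of all genes tested, 16.2% were lower and 13% higher. Cyp4v3, a fatty acid hydroxylase, was 128, 129.5, 143, 116 and 111 on the KO arrays, against 289, 272, 294, 261 and 227 on the WT arrays. KO values were under those of every WT array by a wide gap (log2 change -1.01, SE 0.09, adjusted p = 6.28e-06), and a weaker probe set of the gene gave -0.70 (adjusted p = 0.000285). The stronger one is of a type whose probes can match more than 1 transcript. Cyp4f18, which acts on leukotrienes in neutrophils, was 56.9, 55.1, 53.3, 36.5 and 37.6 on the KO arrays, against 69.1, 61.3, 76.1, 60.3 and 55.0 on the WT arrays. The groups overlapped between KO 6 and WT 5 (log2 change -0.34, SE 0.11, adjusted p = 0.0387). This call was lost with quantile normalization (adjusted p = 0.0501) and without WT 1 (0.0718), WT 2 (0.0584), WT 3 (0.0884), WT 4 (0.0579), KO 9 (0.0913) and KO 10 (0.0881). The myeloid marker genes, given above, were also lower in sum on the KO arrays, and their part in this value was not tested. Cyp4b1, known from lung, was 48.4 to 58.9 in KO and 31.8 to 81.9 in WT cells (0.01).

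Neighbouring Cyp4f genes on chromosome 17 changed in opposite directions. Cyp4f16 was 117, 199, 171, 185 and 215 on the KO arrays, against 270.3, 304, 337, 359 and 338 on the WT arrays. No KO value reached a WT value, and KO 6 was the lowest (log2 change -0.82, SE 0.13, adjusted p = 0.000687). Cyp4f14, which inactivates leukotrienes in liver, was 27.4, 27.7, 26.8, 32.3 and 35.4 on the KO arrays, against 56.2, 68.2, 44.1, 48.9 and 37.5 on the WT arrays, again without overlap (log2 change -0.53, SE 0.11, adjusted p = 0.00342). Cyp4f15, which lies between them in gene order, was 88.9, 92.2, 92.7, 90.2 and 71.9 on the KO arrays, against 45.0, 44.2, 54.3, 39.2 and 61.1 on the WT arrays. Here every KO value was the higher, with KO 10 below the other KO arrays (log2 change 0.68, SE 0.10, adjusted p = 0.000321). Cyp4f13, at the end of the row, was 63.8 to 69.6 in KO and 59.98 to 76.3 in WT cells (0.01, adjusted p = 0.944). At the other end, Cyp4f39, which hydroxylates very long fatty acids of the skin barrier, had a change of -0.11 (adjusted p = 0.48). A second probe set of Cyp4f16, of a type with partly shared sequence, gave -0.20 (adjusted p = 0.106), and one annotated to both Cyp4f37 and Cyp4f16 was 155 ± 14.1 in KO and 220.2 ± 26.9 in WT cells (-0.46, adjusted p = 0.00309). The size of the Cyp4f16 change therefore depends on the probe set.

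The promoters of these neighbours are printed because genes of similar sequence changed in opposite ways. Each line gives the 120 bases before the RefSeq start, on the gene's strand, and capitals mark a CCAAT box, read here on the reverse strand as ATTGG.
Cyp4f16 (GRCm38.p6, chr17:32536437-32536556, plus strand): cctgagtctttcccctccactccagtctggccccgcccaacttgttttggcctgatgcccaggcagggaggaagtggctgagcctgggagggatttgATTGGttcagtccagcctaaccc
Cyp4f14 (GRCm38.p6, chr17:32917357-32917476, minus strand): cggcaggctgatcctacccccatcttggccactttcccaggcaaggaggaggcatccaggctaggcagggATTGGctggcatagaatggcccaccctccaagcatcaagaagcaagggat
Cyp4f15 (GRCm38.p6, chr17:32685539-32685658, plus strand): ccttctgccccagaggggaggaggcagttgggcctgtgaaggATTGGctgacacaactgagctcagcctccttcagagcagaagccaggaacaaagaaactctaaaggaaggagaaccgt
Cyp4f13 (GRCm38.p6, chr17:32947362-32947481, minus strand): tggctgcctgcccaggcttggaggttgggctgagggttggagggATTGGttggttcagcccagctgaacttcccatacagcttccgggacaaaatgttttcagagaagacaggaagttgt
All 4 windows held 1 box, whatever the gene's change. At least 1 stood in 21.3% of all windows of this length, which cover all listed starts. By the first listed start, 14 of the 36 measured P450 genes with a window held one. Windows of such related genes are not independent, and that of Cyp4f39 is not shown. The box ended 18 bases before the start in Cyp4f16, 45 in Cyp4f14, 73 in Cyp4f15 and 71 in Cyp4f13. RefSeq lists 4 starts for Cyp4f14, of which the one listed first is shown.

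**Figure D2:**
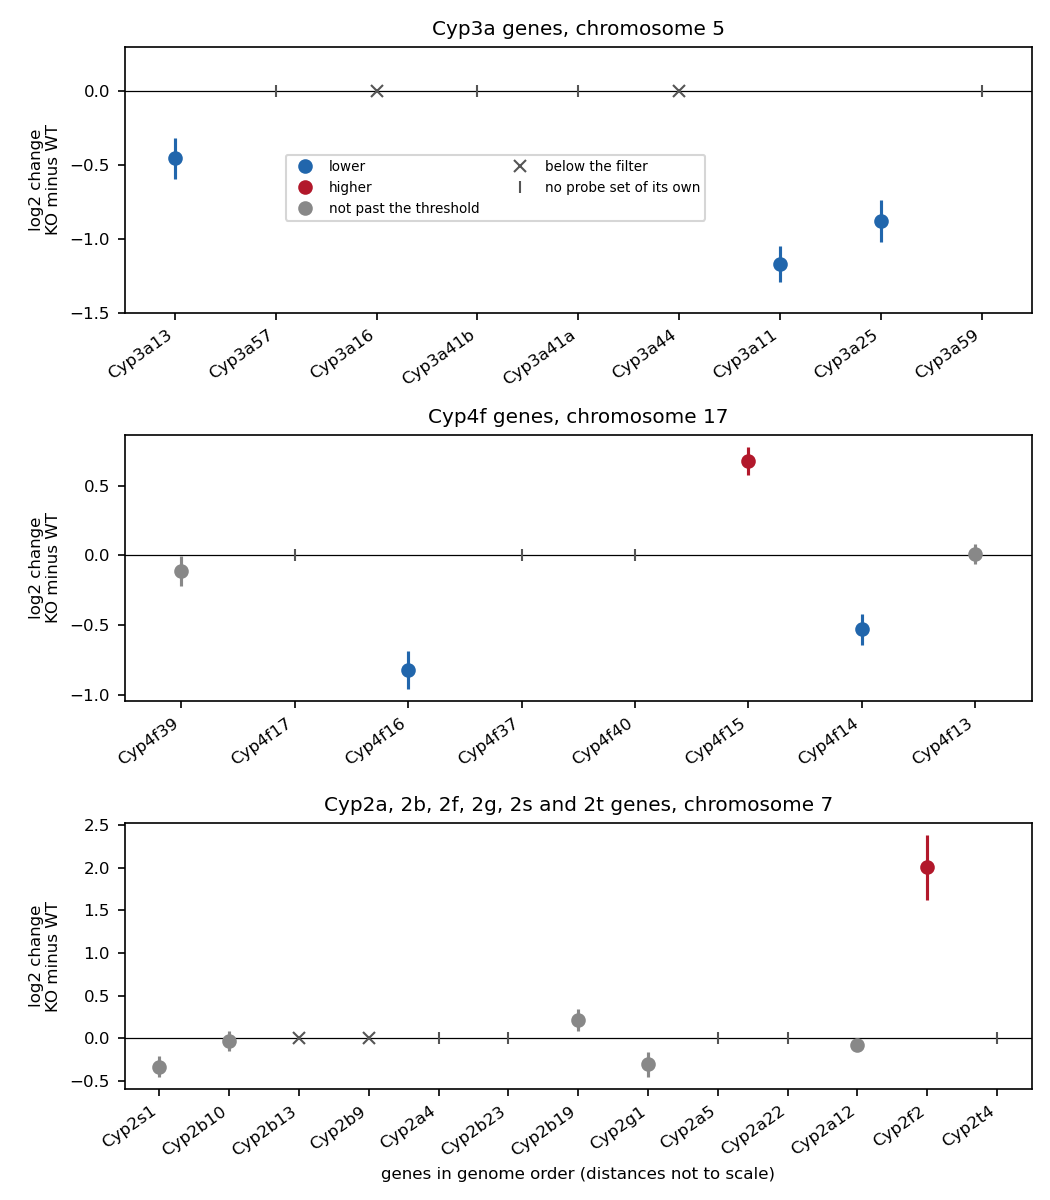
Log2 change, Fezf2 KO minus WT, with the SE as a bar, of P450 genes placed in their genome order in 3 clusters. All 3 measured Cyp3a genes lie below 0, Cyp4f15 at 0.68 stands between Cyp4f16 at -0.82 and Cyp4f14 at -0.53, and Cyp2f2 is the 1 gene of its cluster past the threshold. Crosses and ticks at 0 are genes that were not measured.

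All 3 measured genes of the Cyp3a subfamily, which oxidise drugs, bile acids and steroids in liver and intestine, were lower. Over all genes tested the share lower was 16.2%. Cyp3a11, the main enzyme of this kind in mouse liver, was 35.8, 28.6, 32.5, 30.8 and 26.3 on the KO arrays, against 92.2, 88.3, 88.6, 63.4 and 121 on the WT arrays. No KO value came near a WT value, and the ratio of KO to WT means was 0.340 (log2 change -1.17, SE 0.12, adjusted p = 2.27e-05). Cyp3a25 was 25.4, 26.9, 58.4, 34.2 and 34.0 on the KO arrays, against 84.9, 80.5, 64.2, 86.2 and 71.8 on the WT arrays. KO 8 came close to WT 3 while the other KO arrays lay well below (log2 change -0.88, SE 0.14, adjusted p = 0.000647), and without KO 8 the change was -1.02. Cyp3a13, known from intestine, was 218, 241, 237, 202 and 189.8 on the KO arrays, against 347, 309, 407, 271 and 214 on the WT arrays. WT 5 fell among the KO values (log2 change -0.45, SE 0.14, adjusted p = 0.0284). The call of Cyp3a13 was lost without WT 1 (0.0594), WT 2 (0.0555), WT 3 (0.0591), KO 9 (0.0614) and KO 10 (0.0628), and without WT 1 and KO 6 together (adjusted p = 0.0755). A probe set annotated to the near-identical Cyp3a41a and Cyp3a41b was 32.5, 45.2, 49.3, 55.3 and 39.8 on the KO arrays, against 93.6, 121, 49.8, 87.4 and 133 on the WT arrays. It was lower too (log2 change -0.86, SE 0.19, adjusted p = 0.00679), in a fit over 27193 probe sets of which 11.8% were lower. Related Cyp3a transcripts may bind each other's probes, so these values are not fully separate.

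Upstream sequence of the Cyp3a genes is given because all 3 measured ones were lower. Capitals mark CAAAGTCCA, a motif preferred by the liver and intestine factor HNF4 and searched on both strands.
Cyp3a11 (GRCm38.p6, chr5:145879855-145879974, minus strand): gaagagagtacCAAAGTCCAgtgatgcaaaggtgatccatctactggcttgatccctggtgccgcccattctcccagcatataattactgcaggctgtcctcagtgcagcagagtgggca
Cyp3a25 (GRCm38.p6, chr5:146009619-146009738, minus strand): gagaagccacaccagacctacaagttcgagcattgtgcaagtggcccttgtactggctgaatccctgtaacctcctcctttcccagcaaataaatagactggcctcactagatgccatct
Cyp3a13 (GRCm38.p6, chr5:137921620-137921739, minus strand): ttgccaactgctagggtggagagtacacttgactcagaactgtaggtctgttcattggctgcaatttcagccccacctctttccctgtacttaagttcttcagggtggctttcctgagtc
The motif stood in the window of Cyp3a11, and these letters were not found in those of Cyp3a25 and Cyp3a13. RefSeq lists 2 starts for Cyp3a25, of which the one listed first is shown. It occurs in 71 of 32851 windows of this length (0.216%), which cover all listed starts. By the first listed start, 6 of the 51 P450 genes with a window held it. Several are of the Cyp3a and Cyp2c subfamilies, and windows of such related genes are not independent. Among the 36 measured P450 genes with a window it stood in 3, Cyp3a11, Cyp2c68 and Cyp2c70. Of these, Cyp2c70 did not pass (0.08, adjusted p = 0.564). The others with the motif, Cyp3a16, Cyp2c65 and Cyp8b1, were below the filter. Hnf4a itself was 67.6 ± 14.4 in KO and 127 ± 18.5 in WT cells (-0.78, adjusted p = 0.000757). Markers of hepatocytes were lower in 13 of 15 measured cases and higher in 1 (summed signal 2337 to 3132 on KO and 5283 to 6553 on WT arrays), a list that holds Hnf4a. Those of enterocytes were lower in 7 of 12 and higher in 1 (summed signal 7778 to 8921 on KO and 9948 to 14738 on WT arrays). Their part in the Cyp3a values was not tested.

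Family 1 enzymes, induced by aromatic pollutants through the receptor Ahr, were measured in all 3 cases, and 1 was lower. Of all genes tested, 16.2% were lower. Cyp1a2, a liver enzyme that oxidises caffeine, was 173, 237, 172, 244 and 246 on the KO arrays, against 247, 312, 255, 296 and 283 on the WT arrays. The highest KO value, on KO 10, lay next to the lowest WT value, on WT 1 (log2 change -0.37, SE 0.11, adjusted p = 0.0297). The call was lost without WT 2 (0.0702), WT 4 (0.0688), WT 5 (0.059), KO 6 (0.0557) and KO 8 (0.0746). Cyp1a1 was 38.6 to 48.5 in KO and 31.5 to 41.8 in WT cells (0.16, adjusted p = 0.11) and Cyp1b1 74.6 to 109 in KO and 93.3 to 118 in WT cells (-0.15, adjusted p = 0.288). Ahr rose, with 188 ± 69.8 in KO and 108 ± 14.2 in WT cells (0.67, adjusted p = 0.0122).

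In family 2, with 17 of 34 genes measured, 5 were lower (29.4%) and 2 higher (11.8%), against 16.2% and 13% of all genes tested. Cyp2f2, the abundant P450 of airway club cells, was 3604, 1398, 1808, 1550.1 and 1698 on the KO arrays, against 994, 693, 189, 363 and 418 on the WT arrays. Every KO array was above every WT array, with KO 6 and WT 1 the highest of their groups and WT 3 the lowest of all. The fitted change was 2.00 (SE 0.38, adjusted p = 0.00173), or 4.01-fold. It rests on a single probe set, of a type whose probes can match several transcripts of the same gene. Because the groups did not overlap, the exact two-sided permutation test could only give p = 0.00794, the smallest that 5 against 5 arrays allow. The gene had the largest rise of those measured, and this p is not corrected for that choice. With WT 1 and KO 6 as a block, which no label makes a batch, its adjusted p was 0.00011. This adds no support, since both were the highest of their groups. Without both the change was 2.05 (adjusted p = 0.00116). The other measured genes of its cluster on chromosome 7 did not pass. They were Cyp2s1 (-0.33, adjusted p = 0.0556), Cyp2g1 of the olfactory mucosa (-0.31), Cyp2a12 (-0.08), Cyp2b10 (-0.03) and the keratinocyte gene Cyp2b19 (0.22). A probe set shared by Cyp2a5 and Cyp2a4 gave the strong signals 2932, 2700.1, 2868, 2189 and 2179 on the KO arrays, against 3501, 3337, 3275, 3109 and 2492 on the WT arrays, and did not pass (-0.29, adjusted p = 0.0785).

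**Figure D3:**
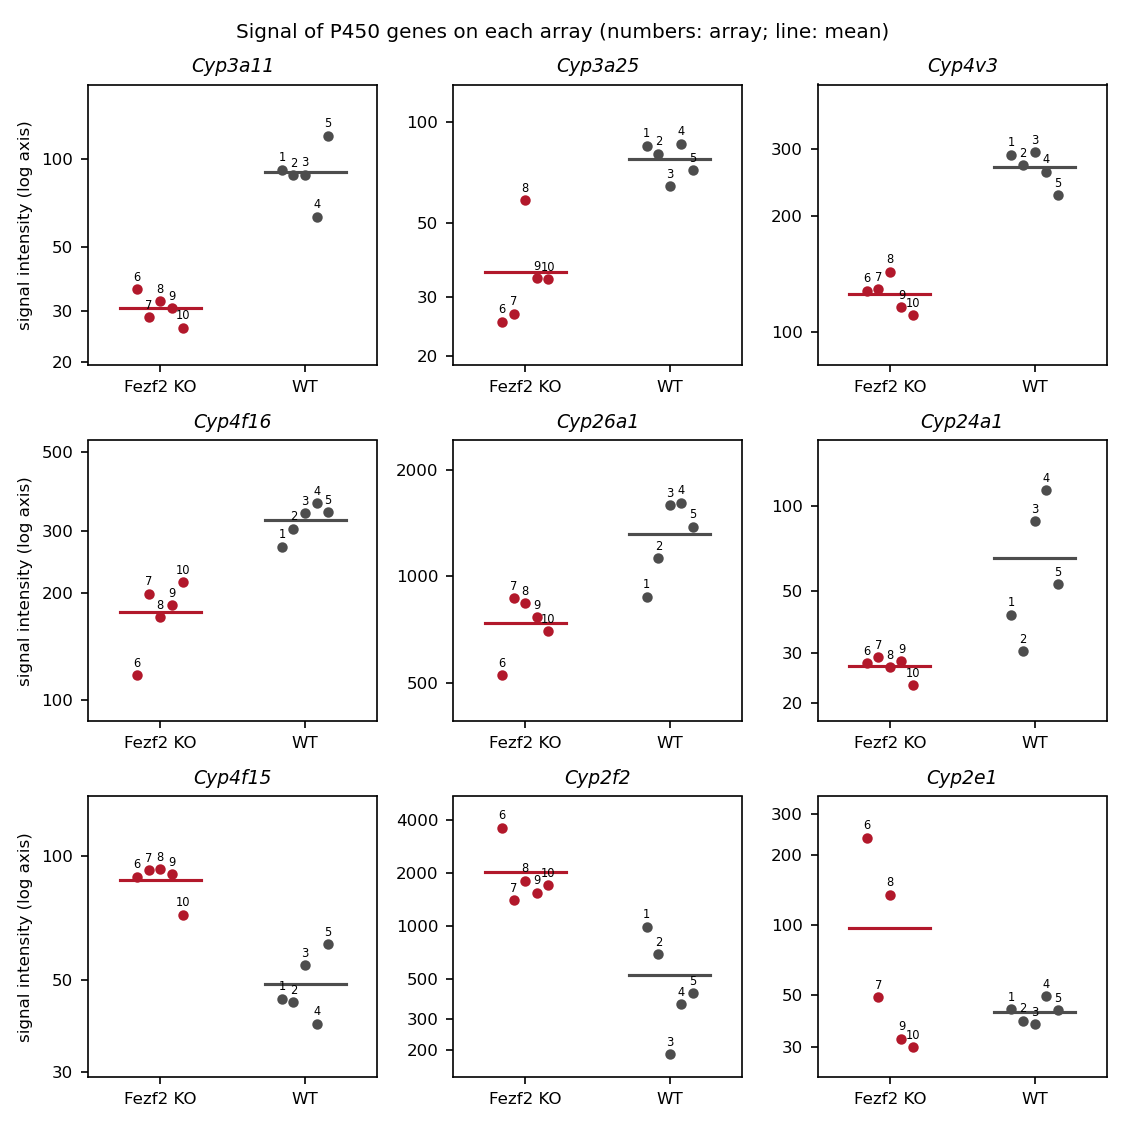
Signal intensity of 9 P450 genes on each array on a log axis, Fezf2 KO left and WT right, with array numbers above the points and the group mean as a line. Cyp3a11, Cyp4v3 and Cyp4f15 form separate groups, Cyp24a1 is low on all KO arrays and spread on WT arrays, and Cyp2e1 is raised on KO 6 and KO 8 alone among the 10 arrays.

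Of the measured genes, 2 of 3 in the Cyp2j and 2 of 4 in the Cyp2c subfamily were lower and none higher. Over all genes tested, 16.2% were lower and 13% higher. Cyp2j13, of a subfamily that makes epoxides from arachidonic acid, was 32.0, 41.7, 39.2, 42.0 and 41.2 on the KO arrays, against 83.5, 70.8, 43.7, 55.7 and 69.4 on the WT arrays, without overlap (log2 change -0.53, SE 0.12, adjusted p = 0.00638). Cyp2j9 was 28.8, 25.9, 25.3, 22.8 and 19.2 on the KO arrays, against 38.1, 29.6, 29.6, 33.8 and 34.3 on the WT arrays (log2 change -0.28, SE 0.07, adjusted p = 0.0137). The third measured gene of this subfamily, Cyp2j6, was 70.2 to 119.95 in KO and 81.3 to 132 in WT cells (-0.12, adjusted p = 0.571). Cyp2c37 was 28.1, 27.1, 28.4, 34.3 and 13.5 on the KO arrays, against 45.8, 36.9, 36.5, 37.8 and 39.2 on the WT arrays (log2 change -0.41, SE 0.12, adjusted p = 0.0236). Its call was lost without WT 1 (0.0508) and without WT 1 and KO 6 together (adjusted p = 0.0501). Cyp2c68 was 23.4, 18.7, 25.5, 21.5 and 16.4 on the KO arrays, against 42.5, 29.5, 22.7, 28.2 and 32.0 on the WT arrays, with overlap (log2 change -0.33, SE 0.10, adjusted p = 0.0294), and was no longer called without WT 5 (0.0601), KO 7 (0.0684) and KO 10 (0.0679). Cyp2j9, Cyp2c37 and Cyp2c68 lay close to the cut-off in KO cells, where the offset of 16 compresses changes. The other measured Cyp2c genes, Cyp2c29 and Cyp2c70, did not pass and had changes of -0.23 and 0.08. No measured Cyp2c gene was above the cut-off on all 10 arrays. Cyp20a1, the 1 gene of its family and without a known substrate, was 112 to 142 in KO and 105 to 131 in WT cells (0.03, adjusted p = 0.791).

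The Cyp2d genes on chromosome 15, where Cyp2d9 and Cyp2d12 are neighbours among P450 genes, also split. Cyp2d9, a testosterone hydroxylase typical of male mouse liver, was 39.9, 41.2, 49.7, 36.1 and 42.1 on the KO arrays, against 50.8, 57.9, 60.7, 58.7 and 58.3 on the WT arrays. No KO value overlapped a WT value (log2 change -0.35, SE 0.07, adjusted p = 0.00353), and with the presence of Xist as a block the change was -0.36 (adjusted p = 0.00393). Cyp2d12 was 43.8, 47.2, 64.9, 58.1 and 46.8 on the KO arrays, against 42.4, 37.6, 34.4, 26.6 and 35.2 on the WT arrays, all KO values being the higher (log2 change 0.41, SE 0.10, adjusted p = 0.00975). Cyp2d10 was 36.5 to 49.4 in KO and 41.2 to 55.7 in WT cells (-0.14, adjusted p = 0.226). The subfamily is closely related in sequence. Apart from that, the probe set of Cyp2d9 is of a type that can match several transcripts of the same gene. Cyp2e1, the ethanol-oxidising P450 of liver, was 237, 49.2, 135, 32.6 and 30.03 on the KO arrays, against 43.6, 38.9, 37.6, 49.6 and 43.3 on the WT arrays. KO 6 and KO 8 stood apart, while KO 7, KO 9 and KO 10 were within or below the range of the WT arrays, and the difference did not pass (log2 change 0.61, SE 0.40, adjusted p = 0.284). The exact two-sided permutation test of Cyp2e1 gave p = 0.397. KO 6 and KO 8 are the KO arrays without Xist signal, and WT 2, also without it, had a Cyp2e1 signal of 38.9.

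**Figure D4:**
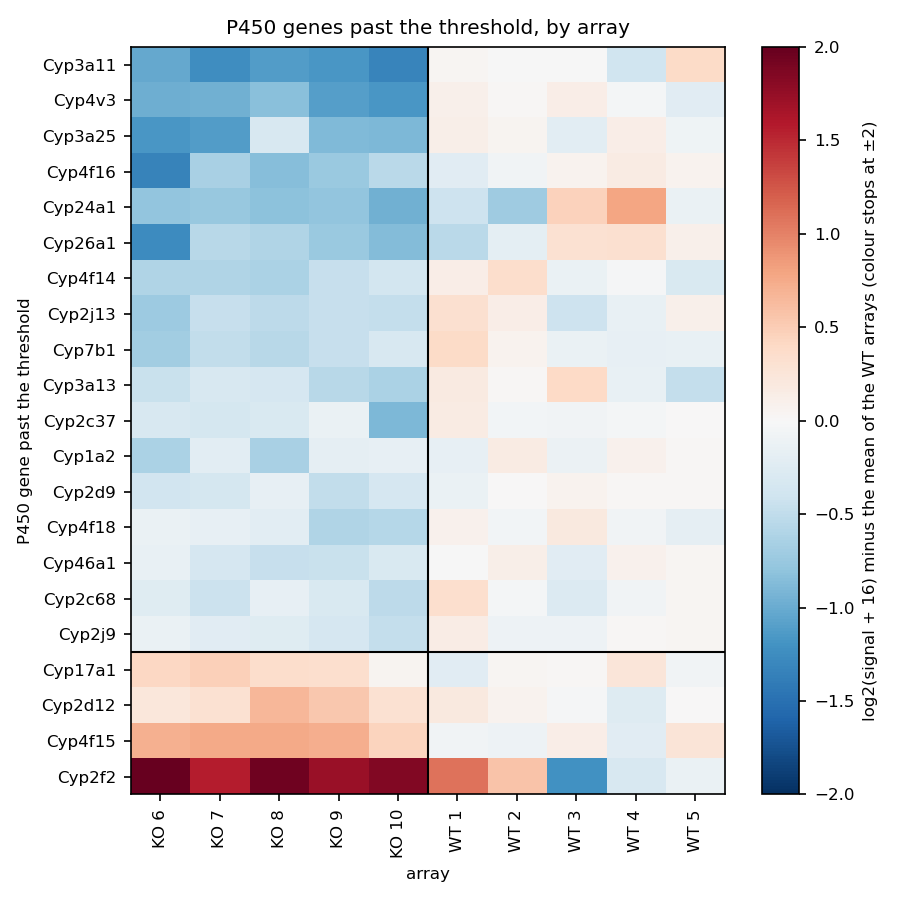
The 21 P450 genes past the threshold (rows, ordered by change) on the 10 arrays (columns, KO left of WT), coloured by log2(signal + 16) minus the mean of the WT arrays. The 17 upper rows are blue on the KO arrays and the 4 lower rows red, and the WT columns vary most for Cyp2f2 and Cyp24a1.

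Genes of the machinery that P450 enzymes need are read against the 16.2% lower and 13% higher of all genes tested. In a list of electron donors and partner proteins of P450 enzymes, 5 of 10 measured genes were lower and 0 higher, with a median log2 change of -0.15. Cyb5r1, a cytochrome b reductase, was 117 ± 12.0 in KO and 180.5 ± 7.54 in WT cells (-0.56, adjusted p = 0.000155). The haem-binding membrane proteins Pgrmc1 and Pgrmc2, partners of several P450 enzymes, had changes of -0.27 and -0.33, and Cyb5b one of -0.38. Fdx1, the ferredoxin of mitochondria, was 1085 ± 149 in KO and 923 ± 71.0 in WT cells and did not pass (0.22, adjusted p = 0.0779), and Por was not analysed here. Of the genes of haem synthesis and breakdown, 1 of 14 measured genes were lower and 2 higher, with a median log2 change of -0.11, a share of lower genes below that over all genes. The lower gene was Alas1, the rate-limiting enzyme of haem synthesis outside erythroid cells, with 1102 ± 54.7 in KO and 1876 ± 143 in WT cells (-0.76, adjusted p = 5.59e-06). Fech, which inserts the iron, and the mitochondrial carrier gene Slc25a39 rose (0.45 and 0.22).

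Receptors and factors known to act on P450 genes were lower in 7 and higher in 2 of 25 measured cases (median -0.01). Of all genes tested, 16.2% were lower and 13% higher. Besides those of Vdr and Hnf4a, the fall of the liver and gut factor Foxa1 was among the surest (-0.44, adjusted p = 0.000311). Among other phase I enzymes, which add or expose reactive groups as P450 enzymes do, 11 of 25 measured genes were lower and 4 higher, with a median log2 change of -0.27. Maoa, which oxidises amine transmitters, fell to 99.4 ± 9.42 in KO cells, against 467 ± 78.7 in WT cells. Fmo5, a flavin monooxygenase of liver and gut, was 119 ± 7.80 in KO and 298 ± 58.4 in WT cells (-1.20). In the other direction, Aldh3b2, an aldehyde dehydrogenase, and the epoxide hydrolase Ephx3, known from epidermis, rose (1.00 and 0.98).

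Family 4, Cyp2c and Cyp2j enzymes share substrates with the eicosanoid pathway, where 7 of 19 measured genes were lower and 1 higher, with a median log2 change of -0.27. Ptgs2, the inducible cyclooxygenase, was 1139.9 ± 197 in KO and 3729 ± 420.3 in WT cells (-1.71, adjusted p = 1.13e-06). Hpgds, a prostaglandin synthase, fell (-0.95), as did the lipoxygenase gene Alox15 (-0.59), while Ephx3, which opens fatty acid epoxides, was higher. Myeloid marker genes, given above, were also lower in sum on the KO arrays. Tuft cell markers were lower in 3 and higher in 0 of 11 measured cases (summed signal 1579 to 2924 on KO and 1607 to 3895 on WT arrays). The part of these cells in the eicosanoid values was not tested. Over all 14087 genes the corresponding median was -0.03, with 16.2% lower and 13% higher.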

How the data were processed

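The values were signal intensity per probe set on a linear scale, as deposited by the authors and, per the submitters' processing notes, made with MAS5. The scaling step is not given in the sources used here. No raw scans were used. The members and gene lists were chosen with earlier results of these data known. A gene was taken from its single symbol in the platform annotation and represented by its measured probe set with the highest mean, and probe sets with several symbols were fitted apart at probe set level. Intensities were turned into log2(signal + 16), which understates the change of weak genes, and 14087 genes above the 40th percentile on at least 5 of 10 arrays were fitted in limma 3.58.1 (R 4.3.3; lmFit, eBayes with trend and robust), KO minus WT, with Benjamini-Hochberg adjustment and a threshold of 0.05. The procedure was tested on simulated data. Every adjusted p in the text comes from these limma fits, and 5 arrays a group limit the precision. Named were all P450 genes past the threshold, up to 3 others a role (in family 2 all 10, beyond that rule) and up to 4 called genes a pathway list. Ahr, Fdx1, Ptgis, Cyp51 and Cyp4a12a were named for their roles after their values were seen. Promoters were RefSeq sequences of GRCm38.p6, and motifs were searched on both strands in 32851 windows, with P450 genes counted by their first listed start. Alternatives were the offset, filter, normalization, probe set rule, threshold, array weights, blocks and leaving out arrays.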

Additional observations from a re-analysis of the deposited data

Results flagged for a closer look

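Each of the 44 measured P450 genes was looked at within both groups, 88 groups of 5 arrays, for a single array whose gap to the next exceeded 0.71 of the group's range. There were 8 such cases, and chance alone gives about 1 in 20 groups. On KO 6, Cyp2f2 was 3604 where the other KO arrays had 1398 to 1808, Cyp2b10 was 72.51 where the others had 39.5 to 44.6, and Cyp2j13 was 31.97 where the others had 39.3 to 42.0. On KO 8, Cyp3a25 was 58.41 where the other KO arrays had 25.4 to 34.2, and Cyp39a1 was 25.25 where the others had 29.2 to 29.9. On KO 10, Cyp4f15 was 71.91 where the other KO arrays had 88.9 to 92.7. On WT 1, Cyp2j6 was 132.2 where the other WT arrays had 81.3 to 94.0, and Cyp2c37 was 45.8 where the others had 36.5 to 39.2.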

How the results depend on the processing

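The count of 17 lower P450 genes was 6 with the filter at the 60th percentile, which left 18 of the genes measured, and 10 at an adjusted p under 0.01. With that filter 3 of the 18 were higher. Calls over all genes, in either direction, were 4119 in the main fit, 3451 with that filter and 2473 at 0.01. Under the other alternatives the count of lower P450 genes lay between 14 and 23, the highest with no filter, where all 70 genes were tested. The count of 4 higher genes lay between 3 and 5 under all alternatives. Leaving out each array in turn gave 14 to 18 lower and 3 to 5 higher genes. With WT 1 and KO 6 as a block, which no label makes a batch, 20 were lower, and with Xist signal as a block 18. Calls over all genes moved as well, to 5098 and 3874. Of 469 values of single called genes under the 23 alternatives, 432 kept their call, 37 lost it and 0 changed direction. Those of 13 of the 21 genes were never lost where the gene was measured, while Cyp24a1 and Cyp2j9 lost theirs at an adjusted p under 0.01 alone. No paired analysis was possible because the replicate numbers run from 1 to 10 across both groups and share none. Signals near the cut-off of 21.5 to 22.1, as of Cyp2c68, Cyp2j9 and Cyp46a1 in KO cells, limit what their changes show.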

Other observations

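Some P450 genes fall outside the symbol form used here. Cyp51, which removes a methyl group from lanosterol in cholesterol synthesis, was 551 ± 72.1 in KO and 557 ± 46.7 in WT cells by its strongest probe set (-0.02, adjusted p = 0.904). In the cholesterol synthesis list, 2 of 19 measured genes were lower and 3 higher, with a median log2 change of -0.06, and Sc5d, a desaturase near the end of the route, was 1268 ± 64.6 in KO and 714 ± 28.9 in WT cells (0.81). Ptgis, the prostacyclin synthase, named outside the rule because it belongs to the P450 superfamily, fell (-0.42, adjusted p = 0.0038). Cyp4a12a, an androgen-dependent hydroxylase of kidney, was 47.1 ± 16.6 in KO and 59.4 ± 15.4 in WT cells and did not pass (-0.27, adjusted p = 0.31). The probe set shared by Cyp4a31 and Cyp4a10 was below the filter.

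P450 genes known from skin, Cyp2b19 and Cyp4f39, had changes of 0.22 and -0.11, neither past the threshold, while cornified keratinocyte markers were higher in 7 and lower in 2 of 12 measured cases (summed signal 16590.0 to 21884 on KO and 10015 to 16127 on WT arrays). Of 6 further measured probe sets of P450 genes, all 6 had the sign of the main probe set of their gene, among them those of Cyp11a1 (0.18) and Cyp2b10 (-0.18 and -0.06), none of these past the threshold.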
